A study of Mus musculus with 7 samples.

Results

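The nuclear factor I genes *Nfia*, *Nfib*, *Nfic* and *Nfix* were followed in the H3K27-Ac peak lists of 3 tumour cell clones. They are 4 of the 21938 protein-coding genes that GENCODE places on chromosomes 1 to 19, X and Y of GRCm38. The family was picked from measured values of these lists, because *Nfix* lies in a long H3K27-Ac domain that the lists share; how long depends on how a shared domain is measured, as given with the *Nfix* domain. H3K27-Ac is acetylation of lysine 27 of histone H3, a mark of active promoters and enhancers. All clones carry a homozygous *Cdkn2ab* knockout (*Cdkn2ab*-/-), which removes the cell cycle inhibitors p15Ink4b, p16Ink4a and p19Arf, on an FVB/129P2 backcross background. They were grown from skin tumours in soft agar, which keeps only cells that divide without attachment, and then kept under adherent conditions. The labels do not pair them with animals. There was 1 condition and no cells with an intact locus, so the clones were compared with each other and no test between groups was made. The library labelled backcross 1 or 2 is called clone 1 or 2 here, and the 2 H3K27-Ac libraries of backcross 3 were pooled by the authors into 1 list, called clone 3. The IgG controls were 1 library of clone 1 and 2 of clone 3.

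NFI proteins bind DNA as dimers at the palindrome TTGGC, 5 bases, GCCAA, and the core TTGGC alone is bound more weakly. The genes share a DNA-binding domain and differ mostly in the part that acts on transcription. In the skin NFIB and NFIX belong to the factors of hair follicle stem cells, where they keep the enhancers of these cells accessible, and NFIB also acts on the melanocyte stem cells beside them. NFIA is known for its part in the formation of glia, NFIC for the growth of tooth roots and NFIX for foetal muscle and the brain.

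The lists held 29182, 49587 and 29277 peaks on these chromosomes in clones 1, 2 and 3, and the median summit held 37, 34 and 53 ChIP reads. No peak rested on fewer than 13, 12 and 25 reads, so weaker sites are not listed. Clone 2 has the longest list, which bears on every count below. The cells were also checked by promoter peaks, meaning peaks within 1 kb of a transcript start. Of 9 keratinocyte markers 1 (*Itga6*) had one in all lists. *Krt14* had one in clone 1 only, and *Krt15* and *Col17a1* in clone 2 only. The other 5 (*Krt5*, *Itgb4*, *Cdh1*, *Epcam* and *Dsp*) had none in any. Away from its starts *Cdh1* still had 6.24%, 6.86% and 5.25% of its gene body under peaks in clones 1, 2 and 3. *Itgb4* had 1.94% in clone 2 only, and *Krt5*, *Epcam* and *Dsp* had no peak in the body. Of 10 fibroblast markers 3 had one in all lists (*Pdgfrb*, *Twist1* and *Prrx1*) and 3 had none in any (*Thy1*, *Dcn* and *Lum*). Of 6 melanocyte markers 2 had one in all lists (*Mitf* and *Pmel*) and 4 had none in any (*Dct*, *Tyr*, *Mlana* and *Sox10*). No endothelial or immune marker (4 of each) had one in all lists. Among all protein-coding genes 46.5% had one in all lists, a larger share than in any of these marker lists. Most keratinocyte markers were thus without a promoter peak, but the counts do not name the cell type. The part of the cell type in the values below was not tested.

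Each of the 4 genes had a promoter peak in all 3 lists. Among all protein-coding genes this held for 46.5%, and the single lists of clones 1, 2 and 3 gave 49.8%, 56.9% and 48.1%. The peaks differed in strength. At its strongest promoter peak *Nfix* had 203, 356 and 137 ChIP reads in clones 1, 2 and 3. *Nfib* followed with 161, 321 and 108 reads. *Nfic* had 85, 244 and 55 reads and *Nfia* 68, 184 and 54. *Nfix* stood first and *Nfib* second in every clone, while the values of *Nfic* and *Nfia* in clone 3 differed by 1 read. Reads are compared within a list only, since the lists differ in depth. Among the genes with a promoter peak the median was 98, 213 and 83 reads, and *Nfix* was above 92.5%, 87.8% and 86.4% of them. *Nfib* was above 80.96%, 79.5% and 70.9%. *Nfia* was above only 30.9%, 41.5% and 19.5% and *Nfic* above 41.8%, 58.99% and 20.7%, so that both were near or below the median gene in every clone.

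**Figure D1:**
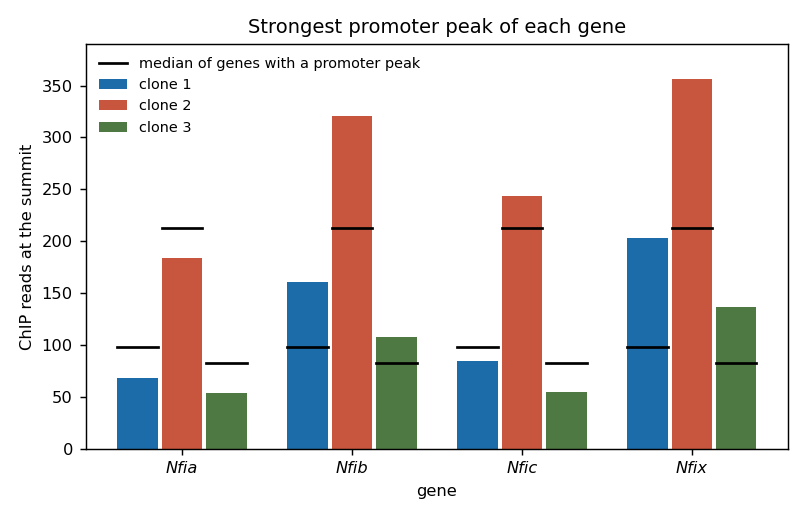
ChIP reads at the summit of the strongest peak within 1 kb of a start of each gene (bars, 1 per clone); black lines give the median over all genes with a promoter peak in that list. *Nfib* and *Nfix* stand above the line in all 3 clones, *Nfia* below it in all 3, and *Nfic* above it in clone 2 only.

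The genes have 31 annotated transcript starts, which form 16 groups when starts no more than 1 kb apart are put together. A peak lay within 1 kb of 6 groups in all lists, of 2 groups in 2 lists and of 4 groups in 1 list, and 4 groups had none. Counted singly, 17 of the 31 starts had a peak in all 3 lists. The body of the genes was overlapped by 163 peaks over the 3 lists. Of these 151 had their summit in an intron, 8 in an untranslated region, 2 in a coding exon and 2 just upstream of the first *Nfia* start.

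*Nfix* (ENSMUSG00000001911.16) lies on the minus strand of Chr8 from 84699876 to 84800344. Its body was overlapped by 29, 43 and 15 peaks in clones 1, 2 and 3, which covered 29048, 58269 and 14095 bp, or 28.9%, 57.997% and 14.03% of the gene. The mean was 33.6% ± 22.4 (SD, n = 3 clones), so the clones differed widely, with clone 2 highest and clone 3 lowest, and 21.5% without clone 2. Among the 10159 protein-coding genes of at least 20 kb these shares ranked 24th, 14th and 90th. The median of those genes was 1.16%, 1.74% and 1.22%. With as many peaks taken from each list as the shortest one holds, clone 2 had 52.1%, and the order of the clones was the same. Without peaks below a −log10 q of 5 the shares were 24.7%, 53.9% and 8.13%. Clone 3 then kept 5 of its 15 body peaks.

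The background of Chr8 was raised in all lists, and *Nfix* lies on it. The local background is an expected number of control reads at the summit and not a count. It has a genome-wide floor, at 0.677, 0.743 and 1.536 in clones 1, 2 and 3. Its median was 1.24, 1.42 and 2.60 under the *Nfix* body peaks, against 1.00, 1.00 and 2.00 on the other autosomes. Over all Chr8 peaks the median background stood at 1.35, 1.398 and 1.43 times the other autosomes, and the median number of ChIP reads was 1.11, 1.06 and 1.21 times theirs. Which control was used for the clone 2 list is not given in the sources used here, so its background and the reads derived from its fold rest on an unnamed control. The background values of clones 1 and 2 are not independent of each other. At 5919 summits that lay within 50 bp in both, outside Chr8 and Chr15, their log background had a Pearson r of 0.903 across sites, against 0.0723 over 4989 summits of clones 1 and 3. In the skin tumours the paper reports small amplicons or modest gains of some chromosomes, Chr8 and Chr15 among them. The part of the Chr8 background, or of such a gain, in the *Nfix* values was not tested. Among the 482 genes of at least 20 kb on Chr8 alone *Nfix* ranked 3rd, 3rd and 6th by the share of its body under peaks.

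The outer *Nfix* promoter, a group of 3 starts from 84800024 to 84800344, had a peak over all its start bases in each clone. The summits, at 84799912, 84799961 and 84799940, lay within 49 bp of each other. The peaks ran over 1854, 3616 and 1870 bp, and each was stronger than 95.5% or more of its list (97.7%, 97.3% and 95.5%). A second group, at 84773396 and 84774369, had peaks in all lists as well, with 72, 133 and 52 reads at the strongest summit. In clone 3 that peak began 414 bp from the nearest start and covered neither. At the starts nearer the 3' end, at 84714068 and from 84707716 to 84708218, clone 2 alone had peaks, with 69 and 39 reads. The distance from these starts to the nearest peak was 1577 and 4049 bp in clone 1 and 8763 and 14613 bp in clone 3. GENCODE does not class the transcripts of these 3' starts as protein-coding.

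The RefSeq table gives 4 *Nfix* promoters, all inside the gene. The first has its start 5713 bp from the nearest GENCODE start, and the others lie within 1459 bp of one. Their reference sequence (GRCm38.p6, minus strand, 250 bases before to 50 after the start) is shown because the clones differ at the third and the fourth. The first 2 were under peaks over their whole length in every clone. The third was covered over 62.3% in clone 1 and 100% in clone 2, the fourth over 19.3% and 51.7%, and both were free of peaks in clone 3, whose nearest peak was 1.12 and 1.66 kb away. Capitals mark the NFI core TTGGC or its complement GCCAA and the AP-1 site TGANTCA, searched on both strands.
Nfix chr8:84780033-84780332: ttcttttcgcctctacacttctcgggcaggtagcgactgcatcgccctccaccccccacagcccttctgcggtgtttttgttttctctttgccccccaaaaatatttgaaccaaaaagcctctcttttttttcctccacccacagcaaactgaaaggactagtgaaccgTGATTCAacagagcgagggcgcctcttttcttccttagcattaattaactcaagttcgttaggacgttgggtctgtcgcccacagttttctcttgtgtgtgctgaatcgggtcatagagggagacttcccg
Nfix chr8:84775779-84776078: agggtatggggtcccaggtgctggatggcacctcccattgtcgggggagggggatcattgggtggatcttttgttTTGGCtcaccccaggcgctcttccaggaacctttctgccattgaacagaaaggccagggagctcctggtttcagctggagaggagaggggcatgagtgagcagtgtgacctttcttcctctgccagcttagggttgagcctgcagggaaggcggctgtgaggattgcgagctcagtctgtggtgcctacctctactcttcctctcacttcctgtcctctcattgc
Nfix chr8:84773361-84773660: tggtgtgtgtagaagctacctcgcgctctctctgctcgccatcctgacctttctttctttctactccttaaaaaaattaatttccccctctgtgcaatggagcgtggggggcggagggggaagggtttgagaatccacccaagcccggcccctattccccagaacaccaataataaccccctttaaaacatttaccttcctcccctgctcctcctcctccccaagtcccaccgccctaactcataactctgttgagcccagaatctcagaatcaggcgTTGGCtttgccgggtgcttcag
Nfix chr8:84772826-84773125: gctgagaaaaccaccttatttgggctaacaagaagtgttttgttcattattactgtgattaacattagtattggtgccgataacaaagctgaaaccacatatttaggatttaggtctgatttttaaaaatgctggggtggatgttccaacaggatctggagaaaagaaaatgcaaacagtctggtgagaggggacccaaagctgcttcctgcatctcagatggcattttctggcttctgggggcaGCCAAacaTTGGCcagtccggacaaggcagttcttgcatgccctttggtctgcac
The first holds 1 AP-1 match and no core, the second and the third 1 core each, and the fourth 2 cores, GCCAA and TTGGC, 3 bases apart and in the order opposite to the palindrome. None holds the full NFI palindrome. Of 32817 promoters of this length in the RefSeq table, 46.7% hold a core, 0.0366% the full palindrome and 7.81% the AP-1 letters, so a core is a common match. A match is a description of the letters.

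Within the *Nfix* body 38 merged regions were found when the 3 lists were joined by an overlap of at least 1 bp. Of these, 9 were in all lists, 6 in 2 lists and 23 in clone 2 only, and none was in clone 1 only or clone 3 only. In the whole genome 25255 of the 33914 regions of a single list were of clone 2, which has the longest list. Of the 9 shared regions 2 were at *Nfix* starts and 7 away from them. The strongest of the 7 ran from 84740855 to 84747032, in an intron 56.4 kb into the gene, with 126, 290 and 101 reads at its summits. These were stronger than 87.6%, 93.1% and 81.96% of the peaks of their lists, and lay within 102 bp of each other. Another intronic region, from 84749231 to 84753210, had 60, 140 and 63 reads. A long one from 84781850 to 84791147, nearer the outer promoter, had 59, 207 and 48 reads. The reference sequence around the clone 1 summit of the strongest one is shown on the *Nfix* strand, with the stretch from the lowest to the highest summit of the 3 clones in capitals.
Nfix chr8:84742515-84742814: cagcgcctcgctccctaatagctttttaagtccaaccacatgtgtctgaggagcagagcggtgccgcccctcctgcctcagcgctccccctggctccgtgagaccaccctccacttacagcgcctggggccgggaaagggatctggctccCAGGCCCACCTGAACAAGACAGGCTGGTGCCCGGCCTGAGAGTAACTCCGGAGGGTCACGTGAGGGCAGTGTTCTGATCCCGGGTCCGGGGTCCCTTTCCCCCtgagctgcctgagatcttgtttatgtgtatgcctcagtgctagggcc
It holds no core and no AP-1 match. Of the 15732 regions of all 3 lists, 41.2% hold a core, 0.00636% the full palindrome and 5.28% the AP-1 letters in the same 300 bases around the clone 1 summit.

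Peaks were then joined into domains across gaps of up to 12500 bp, a distance often used to find super-enhancers. In clone 1 *Nfix* fell in a domain from 84712267 to 84811553, made of 30 peaks that cover 29805 bp, 5th of 14560 domains by the bases under peaks. In clone 2 the domain ran from 84656071 to 84872642, with 66 peaks and 80325 bp, 4th of 18280. In clone 3 the gene fell in 2 domains, one from 84774783 to 84811626 with 10 peaks and 8626 bp (106th of 16371) and one from 84722831 to 84752393 with 6 peaks and 6440 bp (285th). The domain was thus among the first 5 in clones 1 and 2 and broken up in clone 3. Of its bases under peaks 97.5% lay in *Nfix* in clone 1 and 72.5% in clone 2, where the domain overlapped 12 protein-coding genes, from the immediate early gene *Ier2* on one side to *Calr*, which codes for the chaperone calreticulin, *Farsa* and *Syce2* on the other. The mean of the largest *Nfix* domain was 39585 ± 36837 bp (SD, n = 3), close to its own spread, and 19216 bp without clone 2.

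The choice of the family rests on these domains, so their order is a description. When overlapping domains of the 3 lists were merged, the merged domain at *Nfix* held 40938, 80325 and 25146 bp under peaks. By their mean, 48803 bp, it came 1st of 10883 merged domains found in all lists, before the one at *Ell* (47617 bp). By its span of 216572 bp it came 3rd, after those at *Ell* (272367 bp) and *Zmiz1* (218009 bp), and by the lowest of the 3 values 4th. The merged domain also takes its width from clone 2. Counting only stretches that lie in a domain in every list, the longest at *Nfix* were 36771 bp (42nd of 11919) and 29563 bp (101st). The 5 longest such stretches were 83950 bp at *Pgs1*, 77450 bp at *Zmiz1*, 74726 bp at *Dnajb12*, 65720 bp on Chr15 outside any protein-coding gene, and 62915 bp at *Ergic1*. *Nfix* is therefore first by the mean of the bases under peaks and not by length. It was first in no single list, since the merged domain at *Frmd8* held 44324, 46911 and 34060 bp and was above it in clones 1 and 3, and the one at *Sbno2* held 88365 bp in clone 2. Without clone 2 the mean at *Frmd8* is above that at *Nfix*.

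**Figure D2:**
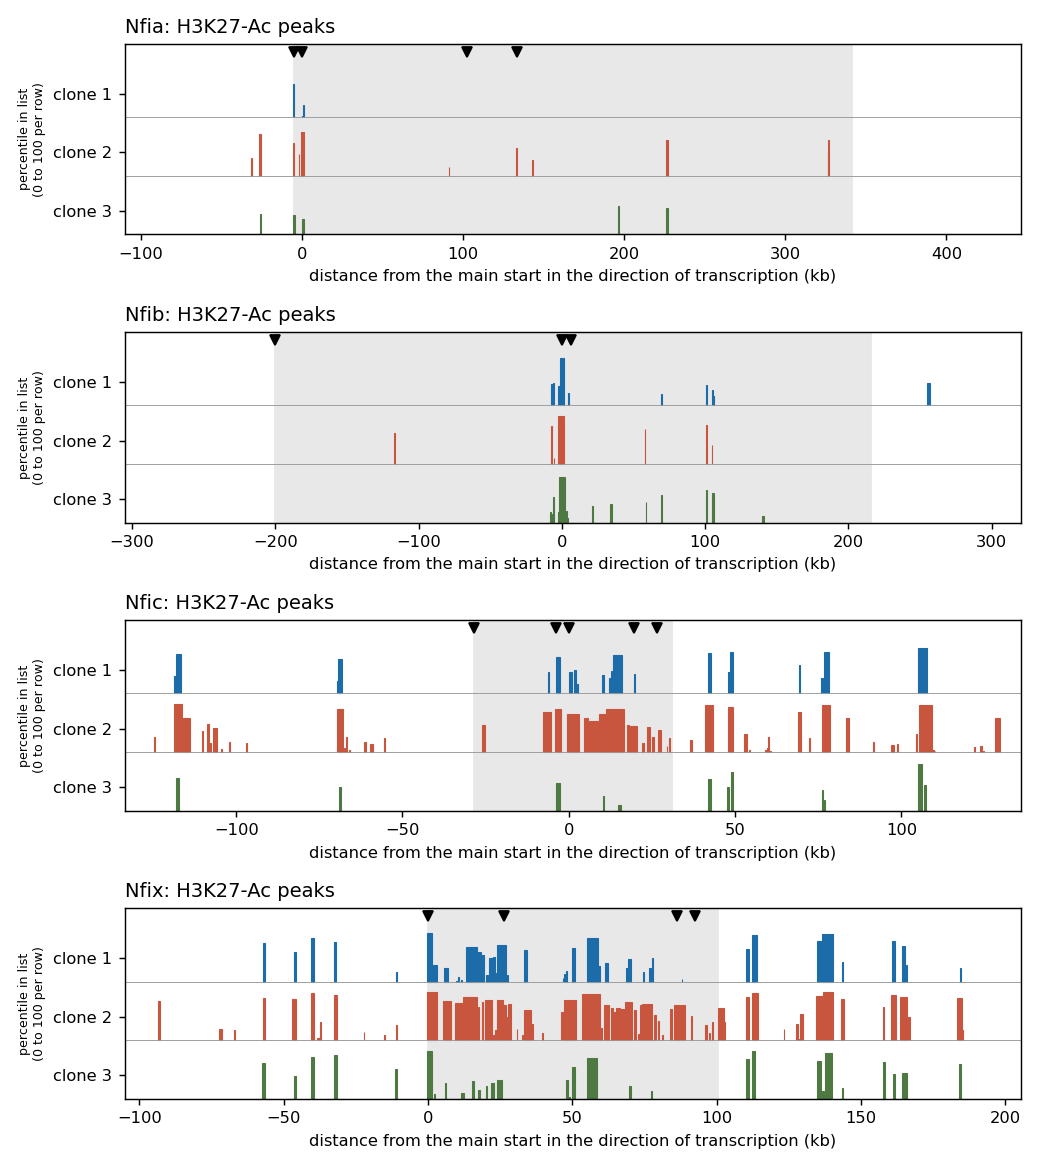
H3K27-Ac peaks of the 3 clones (rows) at each gene, by distance from the main start group in kb in the direction of transcription; bar width is the width of the peak, bar height its percentile by −log10 q within its list, grey the gene body and triangles the groups of transcript starts. Peaks fill much of *Nfix* and, in clone 2, of *Nfic*, and stand far apart in *Nfia* and *Nfib*.

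*Nfic* (ENSMUSG00000055053.18) lies on the minus strand of Chr10 from 81396186 to 81455635 and is the shortest of the 4 genes (59.5 kb). Its body had 10, 17 and 3 peaks in clones 1, 2 and 3, which covered 7586, 26702 and 2349 bp, or 12.8%, 44.9% and 3.95%. The mean was 20.5% ± 21.6 (SD, n = 3), with clone 2 at 11.4 times the share of clone 3, and 8.36% without clone 2. By this share *Nfic* ranked 255th, 43rd and 1703rd of the 10159 long genes. With lists of equal length clone 2 still had 41.4%. Without peaks below a −log10 q of 5 the shares were 12.3%, 42.4% and 1.86%, and clone 3 kept 1 of its 3 body peaks. Chr10 and the other autosomes had the same median background, a ratio of 1.00 in each list.

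The start of *Nfic* with a peak in all 3 lists was the one at 81431005, with 85, 244 and 55 reads. In clone 3 its peak ended 19 bp short of the start base. The group of 3 starts from 81427114 to 81427187 had a peak in clone 1 (29 reads) and clone 2 (82 reads) and none in clone 3, where the nearest peak was 2696 bp away. The same held for the start at 81407641, with 25 and 35 reads and a distance of 3820 bp in clone 3. At 81400554 clone 2 alone had peaks, and at the outermost start, 81455635, no clone had one. The promoter of the 3-start group is shown because it was marked over its whole length in clone 2, over 3.33% in clone 1 and not in clone 3 (RefSeq, GRCm38.p6, minus strand, capitals for the AP-1 letters).
Nfic chr10:81427124-81427423: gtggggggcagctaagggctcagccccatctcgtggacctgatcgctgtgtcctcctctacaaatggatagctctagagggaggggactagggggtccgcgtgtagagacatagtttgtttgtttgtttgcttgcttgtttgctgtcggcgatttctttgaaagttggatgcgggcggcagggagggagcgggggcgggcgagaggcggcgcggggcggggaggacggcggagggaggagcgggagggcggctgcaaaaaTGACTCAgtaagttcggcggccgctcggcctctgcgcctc
The match lies just downstream of the RefSeq start. The promoter has no NFI core, and with 63.0% G and C and 24 CpG it is richer in both than the median promoter of the table (52.7% and 7).

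Of 17 merged regions in the *Nfic* body 3 were in all lists, 3 in 2 lists and 11 in clone 2 only. Regions of a single list were mostly of clone 2 in the whole genome too. Away from the *Nfic* starts 2 regions were in all lists, both intronic and within 1 kb of starts of the non-coding genes *Gm16104* or *Mir1191b*. They ran from 81410468 to 81416090 (71, 207 and 35 reads) and from 81416420 to 81418226 (28, 82 and 40 reads). In the former the summits lay up to 2100 bp apart, and the clone 3 peak was above only 11.6% of its list. For the latter the summits of the 3 clones lay within 75 bp, which capitals mark in the reference sequence on the *Nfic* strand.
Nfic chr10:81416654-81416953: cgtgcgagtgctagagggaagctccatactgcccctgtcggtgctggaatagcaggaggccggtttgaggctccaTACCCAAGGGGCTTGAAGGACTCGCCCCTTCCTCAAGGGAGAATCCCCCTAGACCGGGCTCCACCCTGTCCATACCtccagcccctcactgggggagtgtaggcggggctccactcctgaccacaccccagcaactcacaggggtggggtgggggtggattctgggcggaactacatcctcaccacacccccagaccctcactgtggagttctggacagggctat
It too has no core and no AP-1 match. The *Nfic* domain held 10 peaks and 7586 bp in clone 1 (347th) and reached from 81285723 to 81434902 in clone 2, with 42 peaks, 49202 bp and 14 protein-coding genes (13th). In clone 3 the largest was 1245 bp (7836th). Only 52.4% of the bases of the clone 2 domain lay in *Nfic*, against 100% for the domains of clones 1 and 3.

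*Nfib* (ENSMUSG00000008575.17) lies on the minus strand of Chr4 from 82290173 to 82705750. Peaks overlapped its body 9, 7 and 15 times in clones 1, 2 and 3 and covered 7784, 8079 and 12988 bp, or 1.87%, 1.94% and 3.13% (mean 2.31% ± 0.70, SD, n = 3). Here clone 3 was highest, unlike in the other genes. Of the 7699 long genes with a peak in any list 59.6% had their highest cover in clone 2, 24.9% in clone 3 and 15.5% in clone 1. *Nfib* ranked 3937th, 4771st and 2403rd, so the share under peaks of this 416 kb gene was above 61.3%, 53.0% and 76.4% of the long genes.

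The strongest *Nfib* peak of every clone was at 1 promoter, while 8, 6 and 14 body peaks lay away from the starts. The group of 6 starts from 82505308 to 82505779, which 10 of 12 transcripts use, was covered in every clone by a single peak of 3146, 4689 and 3945 bp, stronger than 95.4%, 95.7% and 90.7% of the list. The outermost start at 82705750 had no peak in any list within 82665 bp, and none lay within 1 kb of the start at 82499316. The peak also lies within 1 kb of a start of the antisense gene *Gm11266*, and H3K27-Ac does not tell the strands apart. The domain around it held 5874, 5998 and 7187 bp under peaks in clones 1, 2 and 3 and ranked 618th, 1196th and 194th. It lay wholly in *Nfib* in each clone and its size differed little, by 1313 bp between the lowest and the highest.

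Of 15 merged regions in the *Nfib* body 5 were in all lists, 1 at the promoter and 4 in introns. Of the latter, 2 lay 5.82 and 7.38 kb upstream of the main starts, with 29, 17 and 48 and with 26, 79 and 36 reads. In the nearer of these the clone 2 peak was above only 11.6% of its list. In the farther the summits lay up to 738 bp apart, and the strongest clone 3 peak was above only 20.4%. The others lay about 100 kb into the gene, from 82399782 to 82401227 (42, 34 and 58 reads) and from 82404279 to 82404994 (30, 115 and 58 reads). At the last the summits lay within 90 bp of each other, marked by capitals in the reference sequence on the *Nfib* strand.
Nfib chr4:82404518-82404817: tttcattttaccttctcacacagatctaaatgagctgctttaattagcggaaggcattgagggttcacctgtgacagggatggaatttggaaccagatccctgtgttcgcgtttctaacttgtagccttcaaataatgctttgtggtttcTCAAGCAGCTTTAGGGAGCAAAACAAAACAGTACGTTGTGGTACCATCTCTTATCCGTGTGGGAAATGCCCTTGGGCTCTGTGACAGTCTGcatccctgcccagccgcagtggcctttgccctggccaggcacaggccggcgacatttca
No core and no AP-1 match lies in these 300 bases. In the body 6 regions were found in clone 3 only, against 2 in clone 2 only and 1 in clone 1 only. The whole genome had 5586, 25255 and 3073 such regions in the same order. The 6 had 30 to 45 reads, each above no more than 41.4% of the list. When peaks below a −log10 q of 5 were dropped, clone 3 kept 6 of its 15 body peaks and covered 1.72%, and the clones then lay at 1.69%, 1.88% and 1.72%. That limit kept 22375 of 29182, 35219 of 49587 and 18610 of 29277 peaks of the lists, so clone 3 lost the largest share of its list. With lists of equal length clone 3 stayed highest, at 3.13% against 1.87% and 1.81%.

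*Nfia* (ENSMUSG00000028565.18) lies on the plus strand of Chr4 from 97772734 to 98118874 and had the least mark. Its body had 3, 8 and 4 peaks in clones 1, 2 and 3 that covered 820, 5814 and 3487 bp, or 0.237%, 1.68% and 1.01% (mean 0.975% ± 0.722, SD, n = 3, and 0.622% without clone 2). It ranked 6412th, 5156th and 5427th of the long genes, below the middle in every clone. Only 2 regions were in all lists, and both were promoters. The first start, at 97772734, had 68, 50 and 54 reads. The group of 5 starts from 97777608 to 97777834 had 19, 184 and 49 reads. In clone 2 the latter was covered over all start bases by a peak of 2173 bp that was stronger than 87.9% of the list, whereas in clone 1 no peak covered a start base and the strongest peak within 1 kb was above 24.6%. This group also lies within 1 kb of a start of *E130114P18Rik* on the other strand, so the mark cannot be given to either gene. The starts at 97880119 and 97911033 had no peak in clones 1 and 3, and clone 2 had one of 42 reads at the latter.

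In the *Nfia* body no region away from its starts was found in all lists. An intronic region from 98003319 to 98004927, 227 kb downstream of the main starts, was in clone 2 (78 reads) and clone 3 (62 reads) and not in clone 1. Upstream of the gene a region from 97751118 to 97752303, within *E130114P18Rik*, had 145 and 39 reads in the same clones. The domain at the promoter held 1356, 3107 and 2077 bp (6852nd, 2821st and 3734th). The 1 RefSeq promoter of *Nfia* in the table, chr4:97581693-97581992, lies far upstream and its nearest peak was 190.2, 36.6 and 169.7 kb away. *Nfib* has no entry there.

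The 4 genes kept 1 order by the share of the body under peaks, *Nfix*, *Nfic*, *Nfib* and *Nfia*, in all 3 clones. Neighbours in this order overlapped in their spread. The means of *Nfix* and *Nfic* differed by less than either SD, which is a spread between clones. Both genes were highest in clone 2 and lowest in clone 3. Within clones 1, 2 and 3 *Nfix* had 28.9%, 57.997% and 14.03% against 12.8%, 44.9% and 3.95% for *Nfic*. *Nfib* in clone 1 (1.87%) was close to *Nfia* in clone 2 (1.68%). The lengths differ as well, 100.5 kb for *Nfix* and 59.5 kb for *Nfic* against 346.1 kb for *Nfia* and 415.6 kb for *Nfib*, and by bases under peaks *Nfib* was above *Nfic* in clones 1 and 3. The 3 protein-coding genes of at least 50 kb most like *Nfix* in their shares over the clones, by Euclidean distance among 5007, were *Plec* (30.5%, 46.5% and 18.1%), *Myh9* (34.2%, 66.2% and 24.3%) and *Foxk1* (18.1%, 49.1% and 11.1%).

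**Figure D3:**
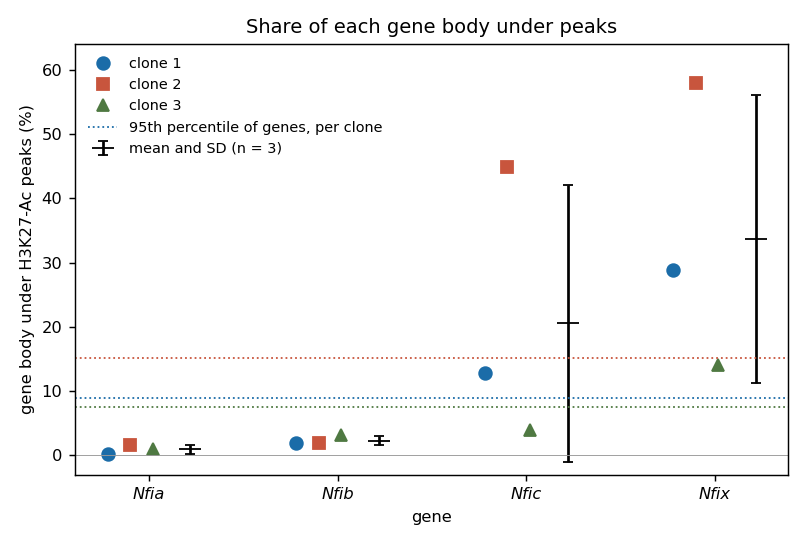
Percent of each gene body under H3K27-Ac peaks in clones 1, 2 and 3 (points), with mean and SD over the clones (n = 3); dotted lines give the 95th percentile of all protein-coding genes of at least 20 kb in the list of the same colour. *Nfix* is above its line in all 3 clones, *Nfic* in clones 1 and 2, and *Nfia* and *Nfib* in none.

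Distal peaks, within 100 kb of the gene ends and away from its starts, numbered 14, 30 and 15 for *Nfix* and 11, 42 and 9 for *Nfic* in clones 1, 2 and 3. *Nfia* had 0, 2 and 1, and *Nfib* 2, 0 and 0. The former pair is surrounded by other genes, and 10, 19 and 11 of the *Nfix* peaks and 11, 25 and 9 of the *Nfic* peaks lay within 1 kb of starts of these. All 6 regions outside *Nfic* that were found in all lists were at starts of other genes, *Cactin*, *Hmg20b*, *Fzr1*, *Dohh*, *Ncln* and *Gna11*. Of 12 such regions outside *Nfix* 9 were at other starts, among them *Ier2* (219, 415 and 155 reads) and *Nacc1* with *Trmt1* (181, 328 and 162 reads). The 3 without a start were within *Cacna1a* (63, 192 and 55 reads), 11.005 kb upstream of the outer *Nfix* promoter from 84811072 to 84811626 (23, 25 and 59 reads), and on the far side of *Ier2* as seen from *Nfix*, from 84656071 to 84657311 (27, 124 and 42 reads). Of these, the one upstream of *Nfix* was strongest within its list in clone 3 (above 59.4% of the peaks) and weak in clone 1 (18.3%).

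Over the 4 genes with 100 kb on each side, 155 merged regions were counted, of which 37 were in all lists (23.9%, Wilson 95% interval 17.8% to 31.2%, which covers counting error only), 14 in 2 lists and 104 in 1. In the whole genome 27.3% of 57727 regions were in all lists. The share was 31.3% at *Nfix*, 29.4% at *Nfib*, 16.7% at *Nfia* and 15.3% at *Nfic*. Of the 104 regions in a single list 94 were of clone 2. In the whole genome 25255 of the 33914 regions in a single list were of clone 2, which has the longest list. Another 3073 were of clone 1 and 5586 of clone 3. At *Nfic* and *Nfix* no region was of clone 1 or clone 3 alone.

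**Figure D4:**
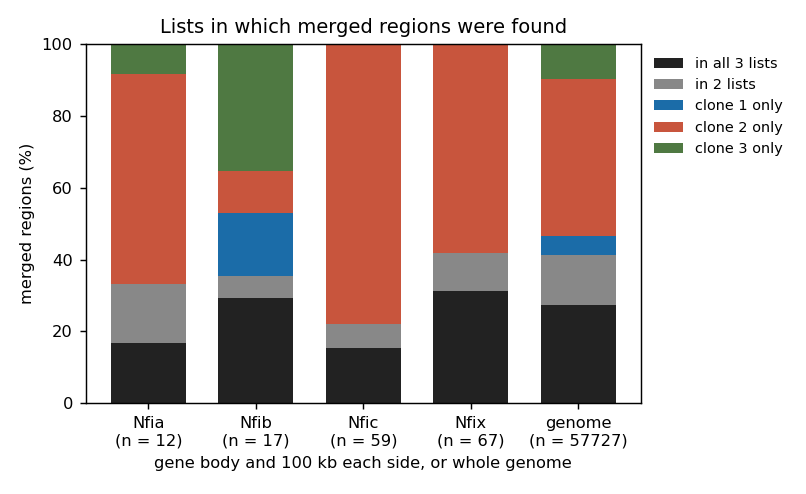
Percent of merged regions found in all 3 lists, in 2 lists or in 1 clone only, for each gene body with 100 kb on each side and for the whole genome (n, number of regions). Regions of clone 2 alone make up most of the bars of *Nfia*, *Nfic* and *Nfix*, and at *Nfib* clone 3 has 6 regions of its own.

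A list of 10 transcription factors, drawn up here for hair follicle stem cells, was counted beside the family. Of these, 8 had a promoter peak in all lists (*Sox9*, *Nfatc1*, *Tcf7l1*, *Tcf7l2*, *Foxc1*, *Runx1*, *Klf5* and *Gata3*), against 46.5% of all protein-coding genes. *Lhx2* had one in clone 2 only, and *Trp63* in none. Not every factor on the list need be particular to these stem cells, and the count does not name the cell type. *Foxc1* (87.5%, 87.3% and 93.7%) and *Sox9* (59.9%, 60.3% and 77.8%) had larger shares of their short bodies under peaks than *Nfix*. *Runx1*, at 224.7 kb longer than *Nfix*, had 10.98%, 11.7% and 5.86%, below *Nfix* in each clone. *Trp63*, which codes for the epithelial factor p63, had 2.21%, 2.65% and 4.65% of its body under peaks and none at a start.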

How the data were processed

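H3K27-Ac ChIP-seq peak lists of 3 tumour cell clones were used. Single-end reads had been aligned by the authors to GRCm38 using bowtie2, and MACS2 2.1.1 is named in the submitters' processing notes. The authors called peaks for each clone and pooled the 2 libraries of clone 3; the names of the peaks mention a filter for allelic mapping bias in clones 1 and 2 only. For each peak the deposited columns give a fold enrichment, which is a ratio of summit pileup to local background after adding 1 to both, and the −log10 of its p-value and q-value. Allele counts were not analysed here. The control behind the clone 2 list is not given in the sources used here.

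Summit reads and background were derived from the fold and the p-value, which returned the deposited −log10 p of all peaks to within 0.00163; the solution was tested on simulated data. Peaks elsewhere than on chromosomes 1 to 19, X and Y were left out (5, 21 and 3). Genes and starts were those of GENCODE M21, and reference sequence was that of RefSeq on GRCm38.p6; 3 of the 4 genes had an entry in its promoter table. A promoter peak lay within 1 kb of a start, and a region was shared if peaks overlapped by at least 1 bp. Percentiles in a list are by −log10 q. Coordinates count from 1. The software was Python 3.11.15 with pandas 2.3.3, numpy 2.4.6, matplotlib 3.10.9 and scipy 1.17.1.

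The members and the gene lists were chosen with earlier results of these data known. Genes were named if they were members, lay in a member's domain or near a distal peak, were in the fixed lists, held 1 of the 5 longest stretches, or were 1 of the 3 genes most like *Nfix*; *Ell*, *Frmd8* and *Sbno2* were chosen with their values in view. The number of clones limits every mean. The alternatives tried were a stricter −log10 q of 5, lists of equal length, other windows, joining distances and overlaps, and leaving out each clone.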

Additional observations from a re-analysis of the deposited data

How the results depend on the processing

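Over 95 alternative values of 14 results, 84 moved by less than the SD over clones (the Wilson interval for shares, 1.5 times for counts) and 11 by more. The spread is wide, so that a mean can change much and stay within it. The share of genes with a promoter peak in all lists went from 46.5% to 42.0% at a −log10 q of 5 or more, to 39.1% counting only peaks over a start base and to 45.8% with protein-coding transcripts only. Under the rule that the start base is covered, 9 of the 17 *Nfi* starts remained in all lists, 6 of *Nfib* and 3 of *Nfix*. All 6 *Nfia* starts, 1 of *Nfix* and the *Nfic* start were lost, the last because its clone 3 peak ends short of it. Counted by gene 3 of the 4 remained, *Nfia* only through different starts in different lists. The regions at the 4 genes found in all lists went from 23.9% to 35.1% with lists of equal length and to 15.8% with summits within 250 bp. Distal *Nfix* peaks fell from a mean of 19.7 to 6.33 when peaks at starts of other genes were left out.

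Leaving out each clone gave 46.7% to 49.5% for the promoters of all genes and 26.3% to 54.8% for the shared regions, the highest without clone 2. These shares then count 2 lists. The median rank of the *Nfix* domain went from 5 to 4.5 without clone 3, 55 without clone 1 and 55.5 without clone 2, and without clone 2 the mean body cover was 21.5% at *Nfix*, 8.36% at *Nfic* and 0.622% at *Nfia* against 33.6%, 20.5% and 0.975%. The mean bases of the *Nfix* domain, 39585, were 19216 without clone 2 and 19111 with peaks joined over 5 kb. Distal *Nfic* peaks, 20.7 on average, numbered 10.0 without clone 2, 11 with lists of equal length and 5.67 without peaks at other starts. At a −log10 q of 5 or more the median rank of the *Nfix* domain was 30, and 16 with peaks joined over 5 kb.

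No paired analysis was possible because all clones are of 1 condition. The lists hold no peak under 13, 12 and 25 reads, so the absence of a peak shows only that none passed there.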
